A study of Mus musculus with 15 samples.

Results

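The insulin-like growth factor (IGF) axis was examined in white adipocytes grown in culture and kept at a cool temperature of 31°C for 1 or 12 days, with cells held at 37°C as day 0. The set consisted of 9 genes taken by name from the count table, 9 of the 18804 genes listed there: the ligand Igf1, the receptors Igf1r and Igf2r, and the binding proteins Igfbp2, Igfbp3, Igfbp4, Igfbp5, Igfbp6 and Igfbp7. The adipocytes came from mesenchymal stem cells of C57BL/6J mouse ears, and were differentiated with methylisobutylxanthine, dexamethasone, insulin and a thiazolidinedione, which the labels give as troglitazone and the study's general culture methods as rosiglitazone. Insulin and the thiazolidinedione were in the medium until day 4 of differentiation and serum alone thereafter, and these steps were shared by the 3 groups of 5 libraries. Day 0 cells stayed at 37°C throughout, day 1 cells were moved to 31°C on day 15, and day 12 cells were moved on day 4, so that all were harvested on day 16. The length of the cool exposure and the stage of differentiation at which it began therefore cannot be told apart. The groups are separate cultures, so the values at days 1 and 12 do not follow the same cells over time. Because each library holds the RNA of a whole culture, fewer cells of a type and less RNA per cell cannot be told apart either.

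IGF1 and IGF2 are secreted peptides related to insulin. They signal through the IGF1 receptor, a tyrosine kinase that acts by way of insulin receptor substrates on the PI3K-AKT and RAS-ERK routes, while the IGF2 receptor removes IGF2 from the cell surface and carries mannose 6-phosphate-tagged enzymes to lysosomes. IGF binding proteins hold the ligands outside the cell and are cut by secreted proteases, which frees the ligand. In fat, IGF1 is made locally as well as arriving from the liver, and IGF signaling is known for driving preadipocytes through growth and differentiation.

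All 9 genes matched a RefSeq promoter entry on build GRCm38.p6, in 10 windows since Igfbp2 had a further start. The 250 bases before the start are printed for the binding proteins that the results turn on: Igfbp4 at chr11:99040994-99041243 on the plus strand and Igfbp7 at chr5:77408046-77408295 on the minus strand, the most abundant members and both lower at day 12, and Igfbp5 at chr1:72874866-72875115 on the minus strand, the member that rose. Capitals mark TATAAA (the TATA box), GGGCGG (a GC box) or ACGTG (core of the hypoxia response element), searched on both strands.
Igfbp4: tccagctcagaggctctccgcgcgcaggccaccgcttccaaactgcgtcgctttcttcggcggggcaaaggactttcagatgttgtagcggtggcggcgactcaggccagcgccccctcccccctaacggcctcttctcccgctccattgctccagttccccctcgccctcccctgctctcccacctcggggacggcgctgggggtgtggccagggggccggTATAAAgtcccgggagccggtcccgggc
Igfbp7: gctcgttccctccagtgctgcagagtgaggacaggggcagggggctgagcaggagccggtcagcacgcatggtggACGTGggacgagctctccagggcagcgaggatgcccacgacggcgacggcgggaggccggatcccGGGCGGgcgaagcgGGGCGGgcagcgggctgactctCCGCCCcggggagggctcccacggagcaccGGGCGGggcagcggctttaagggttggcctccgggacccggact
Igfbp5: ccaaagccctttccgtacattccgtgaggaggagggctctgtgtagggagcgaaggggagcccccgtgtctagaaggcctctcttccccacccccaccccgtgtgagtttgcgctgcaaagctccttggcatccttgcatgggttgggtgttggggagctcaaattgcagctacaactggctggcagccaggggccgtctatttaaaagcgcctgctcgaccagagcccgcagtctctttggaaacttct

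The Igfbp4 window held TATAAA 28 bases before its start, a match found in 12.4% of 32851 RefSeq windows of 250 bases. The Igfbp7 window held GGGCGG at 44, 74, 96 and 110 bases before its start and ACGTG at 175 bases; 32.7% and 16.6% of all windows held these letters. No searched motif was in the Igfbp5 window. Among the other members, GGGCGG was present before Igf1r, Igf2r and Igfbp2, ACGTG before Igf2r and Igfbp2 and TATAAA before Igfbp6. ACGTG was matched on both strands wherever it stood within CACGTG. The forkhead element GTAAACA, present in 3.17% of windows, was before none of the 9 genes.

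Total counts per library ranged from 64648178 to 133270973, and every member had 1906 counts or more in every library. Levels are given as CPM, read counts brought to a common library size by the trimmed mean of M values (TMM), and as CPM per kilobase of exon where genes are set against each other. Changes were tested with edgeR's quasi-likelihood test on all 15 libraries, and a gene was called where the Benjamini-Hochberg adjusted p over 14293 tested genes was below 0.05 and the fold change exceeded 1.5, or 0.585 on the log2 scale. The adipocyte markers Adipoq (1095, 1126 and 464 CPM on average at days 0, 1 and 12) and Fabp4 (828, 1399 and 1617 CPM) were abundant in every group. Of the other adipocyte markers, Cidec averaged 177, 28.8 and 59 CPM, Lep 2.11, 1.34 and 1.3 CPM and Retn 0.272, 0.435 and 0.935 CPM. The stromal marker Dcn was also abundant (5983, 5323 and 5042 CPM). The stromal markers Dpp4 and Pi16 had at most 12 and 9 counts in any library and were not tested. The summed level of 10 adipocyte markers ranged over 5376 to 6080, 6665 to 7411 and 6247 to 6858 CPM at days 0, 1 and 12. That of 12 stromal progenitor markers ranged over 19270 to 19748, 16277 to 16937 and 13239 to 13705 CPM. The sources used here did not say if replicates were separate mice or dishes, so the p-values measure the spread between these libraries only.

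Most of the IGF axis was lower after 12 days at 31°C. Igf1, Igf2r, Igfbp3, Igfbp4 and Igfbp7 fell from day 0 to day 12, whereas Igfbp5 rose, and Igf1r, Igfbp2 and Igfbp6 did not pass both limits. After 1 day Igfbp3 alone had passed them, at a lower level. The set thus had 5 of 9 genes called lower and 1 called higher at day 12, against 16.2% and 13% of all tested genes (29.2% in either direction). At day 1 it had 1 of 9 called lower and 0 called higher, against 13.4% and 7.71% (21.1% in either direction). DESeq2 also called 0 higher at day 1, and 2 members were higher there at an unadjusted p below 0.05 in edgeR. Adjusted p alone was below 0.05 for 7 of 9 genes at each time, most of the day 1 differences being smaller than the fold limit. The share of all tested genes passing on adjusted p alone is not given here, so these counts have no background beside them. Of the 85 other pathway genes tested, 19 were higher and 42 lower on this basis at day 1, and 23 and 47 at day 12. The median log2 fold change of the 9 genes was −0.22 at day 1 and −0.74 at day 12, beside −0.009 and 0.012 over all tested genes. Between day 12 and day 1, which compares the exposures directly, 4 of 9 were lower and 1 was higher, against 8.53% and 10.6% (19.1% in either direction).

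**Figure D1:**
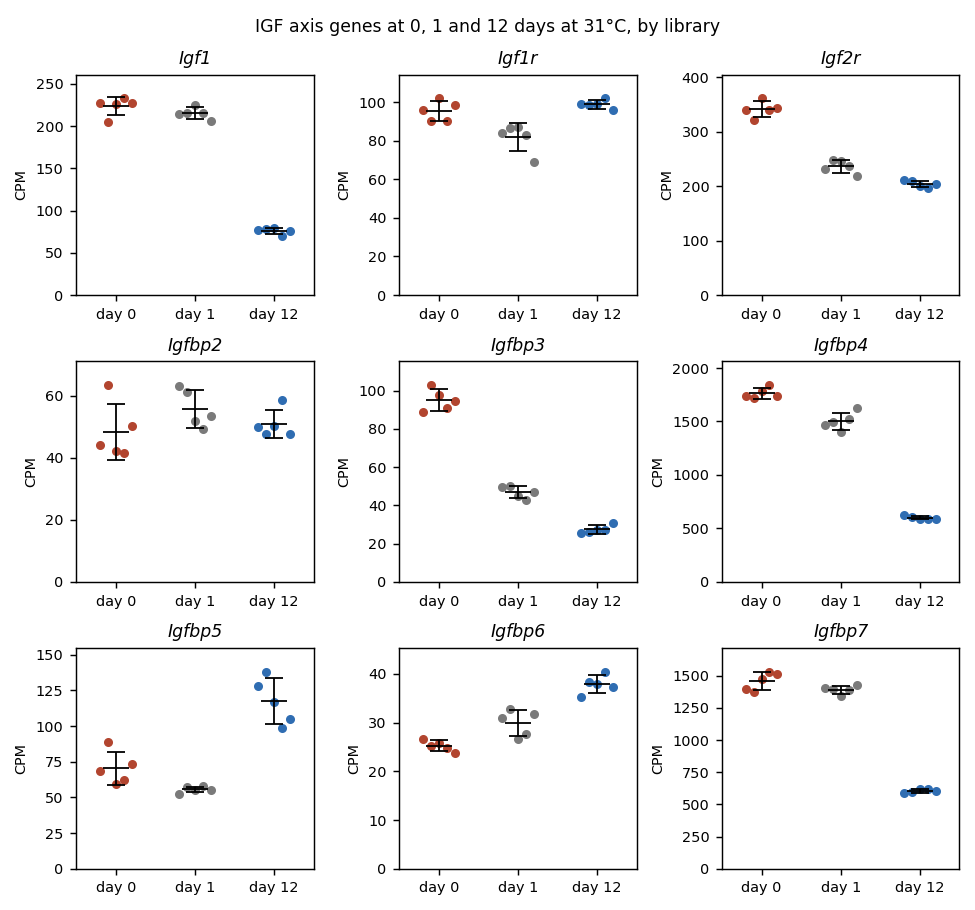
Level of each IGF axis gene in CPM (vertical axis, from 0) in the 15 libraries at 0, 1 and 12 days at 31°C, with the mean and SD of each group of 5 as bars. Igf1, Igfbp4 and Igfbp7 lay near their day 0 levels at day 1 and far below them at day 12, Igfbp3 was lower at both times, and Igfbp5 was highest at day 12.

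Igf1 (chr10:87858265-87937042 of GRCm38), which encodes the growth factor, stood at 227, 205, 226, 233 and 227 CPM in the day 0 libraries. The day 1 libraries held 214, 216, 225, 216 and 206 CPM, and the day 12 libraries 76.4, 78.4, 79.9, 70.2 and 75.9 CPM. The first 2 groups overlapped and every day 12 library was below all others. Igf1 differed by −0.05 ± 0.035 (log2, SE) at day 1, with a 95% interval of −0.13 to 0.02 and an edgeR adjusted p of 0.18. It fell by 1.55 ± 0.036 on the log2 scale at day 12, a 2.93-fold decrease (adjusted p = 2.99e-21, n = 5 per group, edgeR). The day 12 level was also lower than that at day 1, with a log2 fold change of −1.50 (adjusted p = 1.64e-20, edgeR).

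The signaling receptor and the clearance receptor behaved differently. Igf1r (chr7:67952827-68233668) was at 95.8, 90.4, 102, 90 and 98.5 CPM at day 0. It was at 83.7, 86.3, 87.1, 83.1 and 69 CPM at day 1, below every day 0 library, and at 98.8, 98.3, 99.2, 102 and 95.7 CPM at day 12. Its log2 fold change was −0.22 ± 0.047 at day 1 (adjusted p = 0.000213, edgeR), a 14.2% lower level that was under the fold limit. Replicate 5 of day 1 was the lowest library, and without it the day 1 value was −0.164. Its day 12 value was 0.05, with a 95% interval of −0.05 to 0.15 (adjusted p = 0.327), so a difference past the fold limit lay outside the interval. Day 12 stood above day 1 by 0.27 on the log2 scale (adjusted p = 2.11e-05).

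Igf2r (chr17:12682406-12769664), the IGF2 and mannose 6-phosphate receptor, was measured at 341, 321, 362, 340 and 344 CPM at day 0. Levels of 232, 248, 247, 238 and 219 CPM followed at day 1 and of 211, 209, 200, 196 and 204 CPM at day 12, with no overlap between any 2 groups. The day 1 difference of −0.53 ± 0.034 (adjusted p = 1.49e-12, edgeR) was under the fold limit. By day 12 Igf2r had fallen 1.67-fold, a log2 fold change of −0.74 ± 0.035 (adjusted p = 1.27e-15). With total counts in place of TMM its day 12 value was −0.550, which is no longer past the fold limit, although that scaling also moved the median of all tested genes to 0.205. Igf2r thus lay below its day 0 range within 1 day, whereas the Igf1 levels of days 0 and 1 overlapped.

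Igfbp4 (chr11:99041244-99054392), a binding protein that restrains IGF action until it is cut by PAPP-A, was the member with the most counts at days 0 and 1, with Igfbp7 at a similar count at day 12. Day 0 libraries held 1736, 1717, 1788, 1841 and 1738 CPM, day 1 libraries 1471, 1494, 1398, 1521 and 1623 CPM, and day 12 libraries 625, 609, 587, 588 and 592 CPM. The 3 groups did not overlap, and day 12 lay further from day 1 than day 1 lay from day 0. Igfbp4 differed by −0.23 ± 0.033 at day 1 (adjusted p = 8.71e-07, edgeR), under the fold limit, and fell by 1.56 ± 0.034 on the log2 scale at day 12, or 2.94-fold (adjusted p = 5.68e-22). From day 1 to day 12 its log2 fold change was −1.32 (adjusted p = 3.03e-20).

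Igfbp7 (chr5:77349240-77408041), which binds IGFs weakly and also binds insulin and the extracellular matrix, had the same pattern over the 3 groups as Igf1. Its day 0 levels were 1397, 1373, 1471, 1530 and 1516 CPM, its day 1 levels 1404, 1394, 1344, 1390 and 1427 CPM, and its day 12 levels 586, 600, 618, 618 and 606 CPM. Days 0 and 1 overlapped, and day 12 was below both. The day 1 value was −0.07 ± 0.030 (adjusted p = 0.05, edgeR, not below the threshold), and by day 12 Igfbp7 fell by 1.27 ± 0.030 on the log2 scale, 2.41-fold (adjusted p = 4.67e-21). Of its exon bases, 7.03% overlap Polr2b on the opposite strand, and whether the counting used strand was not given in the sources used here.

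Igfbp3 (chr11:7206086-7213923), the main carrier of IGFs in serum, was the member that had passed both limits within 1 day. It was at 89, 103, 97.9, 91.1 and 94.5 CPM at day 0, at 49.5, 50.3, 44.9, 42.8 and 47 CPM at day 1, and at 25.7, 25.9, 27.4, 27.2 and 31 CPM at day 12. No library reached the range of another group. Igfbp3 fell by 1.02 ± 0.050 on the log2 scale at day 1 (adjusted p = 6.31e-15, edgeR), a 2.03-fold decrease. At day 12 it was lower than at day 0 by 1.79 ± 0.051, or 3.46-fold (adjusted p = 1.18e-19), and day 12 differed from day 1 by −0.77 (adjusted p = 2.67e-12). Its neighbor Igfbp1, whose end lies 3539 bases from the end of Igfbp3 on the opposite strand, had at most 2 counts in any library.

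Igfbp5 (chr1:72857932-72874884), a binding protein held in the extracellular matrix, was higher at day 12. It was at 68.5, 88.7, 59.3, 62.1 and 73.5 CPM at day 0, 52.7, 57, 55, 57.9 and 55.2 CPM at day 1, and 128, 138, 117, 98.6 and 105 CPM at day 12. The day 1 libraries were all below those of day 0 and the day 12 libraries all above. Its day 1 difference was −0.34 ± 0.085 (adjusted p = 0.00102, edgeR), under the fold limit; replicate 2 of day 0 was the highest of its group, and the value was −0.246 without it. At day 12 Igfbp5 was above day 0 by 0.74 ± 0.084, a 1.67-fold difference (adjusted p = 2.44e-08), and above day 1 by 1.08 ± 0.086, a 2.11-fold difference (adjusted p = 6.68e-11). The 95% interval of the day 12 value against day 0, 0.56 to 0.91, reached below the fold limit.

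Igfbp6 (chr15:102144362-102149511), which prefers IGF2 over IGF1, was higher in both exposed groups, each time under the fold limit. Its levels were 26.7, 25.2, 25.8, 24.8 and 23.8 CPM at day 0, 30.9, 32.7, 26.6, 27.7 and 31.7 CPM at day 1, and 35.3, 38.3, 37.9, 40.4 and 37.4 CPM at day 12. Day 12 lay above both other groups, which overlapped each other by a small margin. The log2 fold change was 0.24 ± 0.050 at day 1 (adjusted p = 0.000139, edgeR) and 0.58 ± 0.050 at day 12 (adjusted p = 1.48e-10), which was just under the log2 limit of 0.585. Leaving out replicate 1 or 3 of day 0, or replicate 1 or 5 of day 12, brought the day 12 value to 0.603, 0.589, 0.607 and 0.587 and past that limit.

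Igfbp2 (chr1:72824503-72852474), a binding protein made by white preadipocytes and adipocytes, lies tail to tail with Igfbp5, with 5457 bases between the genes. It was at 44.3, 63.5, 42.1, 41.6 and 50.3 CPM at day 0, 63.1, 61.2, 51.8, 49.3 and 53.4 CPM at day 1, and 50, 47.6, 50.3, 58.7 and 47.6 CPM at day 12. All 3 groups overlapped. Its log2 fold change was 0.21 ± 0.089 at day 1 (adjusted p = 0.0431, edgeR; 95% interval 0.02 to 0.39) and 0.07 ± 0.090 at day 12 (adjusted p = 0.469; 95% interval −0.11 to 0.26). Both intervals lay within the fold limit. Without replicate 2 of day 0 the Igfbp2 values were 0.323 at day 1 and 0.189 at day 12, and without replicate 4 of day 12 the day 12 value was 0.0178. The sign of its difference between day 12 and day 1, −0.13 with TMM (adjusted p = 0.193), turned to 0.0388 with total counts and 0.0187 with reference genes.

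**Figure D2:**
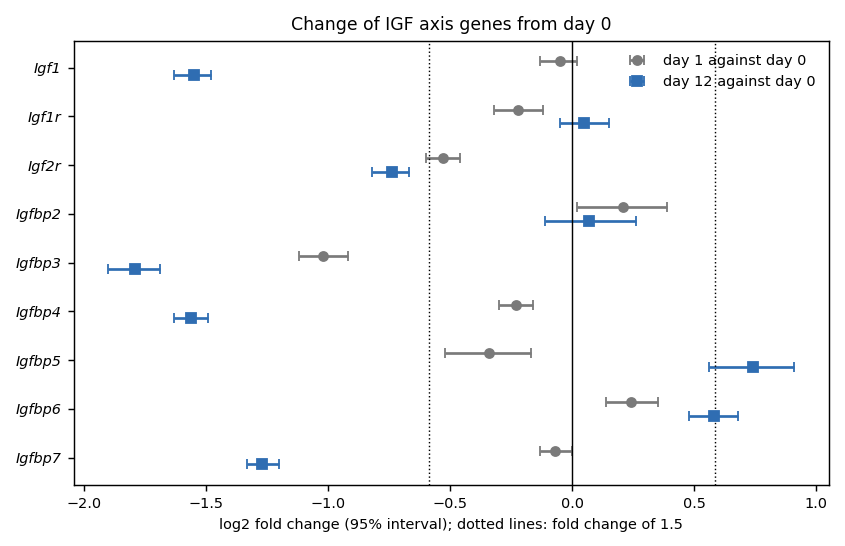
Log2 fold change from day 0 (horizontal axis, linear on the log2 scale) at day 1 (grey circles) and day 12 (blue squares) for each of the 9 genes, with 95% intervals from edgeR; dotted lines mark the 1.5-fold limit. At day 12, 5 genes lie left of the lower limit and Igfbp5 lies right of the upper limit, while at day 1 Igfbp3 alone lies beyond a limit.

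Per kilobase of exon, Igfbp7 and Igfbp4 exceeded all other members in each group. At day 0 the order of mean levels in CPM per kilobase was Igfbp7 1206, Igfbp4 399, Igf2r 36.7, Igfbp3 30.4, Igfbp2 26.2, Igfbp6 22.7, Igf1 22.6, Igfbp5 11.7 and Igf1r 5.68. The libraries of Igfbp3 and Igfbp2, of Igfbp2 and Igfbp6, and of Igfbp6 and Igf1 overlapped, so these neighbors in the order did not differ beyond their spread. At day 12 the order was Igfbp7 501, Igfbp4 136, Igfbp6 34, Igfbp2 27.5, Igf2r 21.9, Igfbp5 19.5, Igfbp3 8.77, Igf1 7.69 and Igf1r 5.89. Here Igfbp6 overlapped with Igfbp2 and Igf2r with Igfbp5. At day 1 Igfbp2, Igfbp6 and Igf2r stood at 30.2, 26.9 and 25.5 CPM per kilobase, each overlapping the next. Igfbp3 thus went from the fourth place to the seventh, and Igfbp6 from the sixth place to the third. Igf1r transcripts had the lowest level per kilobase of the 9 genes in every group.

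The binding proteins as a whole were less abundant at day 12, and their mixture differed. The summed level of Igfbp2 to Igfbp7 in CPM per kilobase was 1696 ± 61.3 (SD, n = 5) for day 0, 1572 ± 45 for day 1 and 727 ± 8.95 for day 12. Igfbp4 and Igfbp7 together made up 94.6% ± 0.624 of this sum at day 0, 94.8% ± 0.341 at day 1 and 87.6% ± 0.265 at day 12. The day 12 libraries, at 87.4 to 88%, did not reach the day 0 range of 93.6 to 95.2%. These shares do not depend on library scaling, and they are descriptions without a test.

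Igfbp5 had the largest relative gain in share, from 0.694% ± 0.133 at day 0 to 0.589% ± 0.0269 at day 1 and 2.69% ± 0.387 at day 12. Igfbp6 went from 1.34% ± 0.096 to 1.71% ± 0.119 and 4.68% ± 0.175, and Igfbp2, whose own level did not pass the limits, from 1.55% ± 0.334 to 1.92% ± 0.201 and 3.79% ± 0.31. The day 12 ranges of these 3 genes lay above their ranges in the other groups. Igfbp3 was at 1.79%, 0.953% and 1.21%, Igfbp4 at 23.6%, 21.6% and 18.7%, and Igfbp7 at 71.1%, 73.2% and 68.9% at days 0, 1 and 12. The ratio of the summed binding proteins to Igf1, per kilobase, was 75.3 ± 2.53 at day 0, 72.4 ± 4.39 at day 1 and 94.7 ± 5.37 at day 12. Its day 12 range of 90.9 to 104 lay above the other ranges, of 71.5 to 78.6 and 66.1 to 78.5. At day 12 the sum of binding proteins was therefore reduced less than Igf1 itself.

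**Figure D3:**
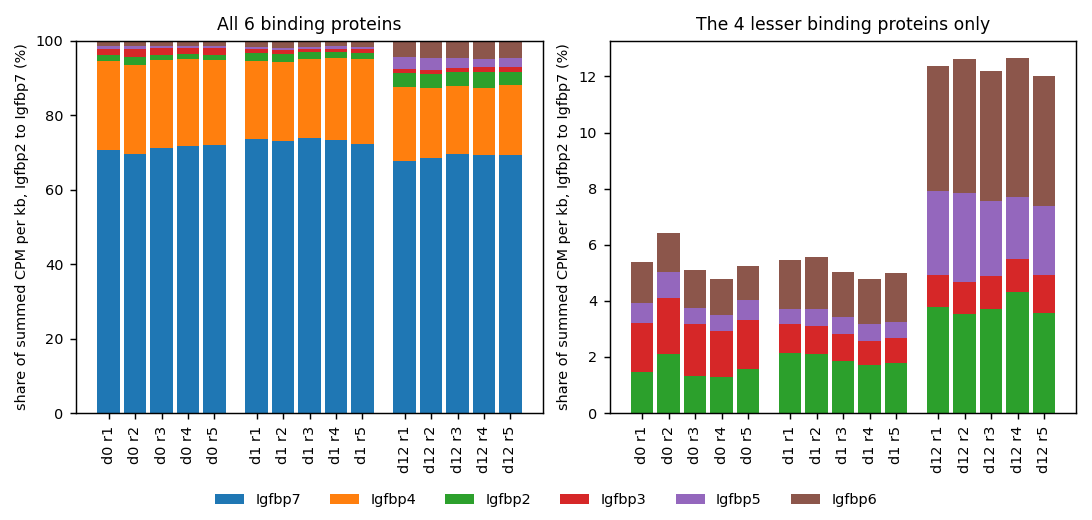
Share (vertical axis, percent from 0) of each binding protein in the summed CPM per kilobase of Igfbp2 to Igfbp7 in each library (d, day; r, replicate), for all 6 genes at left and for the 4 less abundant genes at right. Igfbp7 and Igfbp4 fill 93.6 to 95.2% of each day 0 bar and 87.4 to 88% of each day 12 bar, with Igfbp6, Igfbp2 and Igfbp5 taking up more of the remainder at day 12.

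Genes whose log2 CPM followed each member most closely over the 15 libraries were ranked by Pearson correlation among 12130 genes with a mean of 1 CPM or more. The points share libraries and the group differences, and these values are descriptions. Nearest to Igf1 were Trf (transferrin), Comp and Ntrk2 (each r = 0.996). Igfbp4 was followed by Clu (0.998), Htra1 (0.997) and Cdkn1a (0.996), and Igfbp7 by B2m, Rarres2 (chemerin) and Ctsz (each 0.997). HTRA1 is itself a secreted protease that cuts IGF binding proteins. Igfbp3 was nearest to A930038C07Rik, Tpp1 and 1500009L16Rik (each 0.993), and Igf2r to Sh3pxd2a (0.993), Soat1 (0.992) and Dlc1 (0.989). The genes nearest to Igfbp5 were Rtn2 (0.971), Egfl6 (0.963) and Adnp (0.962), and those nearest to Igfbp6 were Gm5779 (0.981), Oaf (0.978) and Apobr (0.977). Igf1r came closest to Ep400 (0.961), Col12a1 (0.949) and Bmpr2 (0.946). Igfbp2 had no gene as close, its nearest being Gap43 (0.793), Nme4 (0.775) and Wdr31 (0.740).

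Of 92 further genes of the pathway, 85 were tested. At day 1, 10 of the 85 were called lower (11.8%) and 0 higher by edgeR, against 13.4% and 7.71% of all tested genes. DESeq2 also called 0 higher there, and 21 were higher at an unadjusted p below 0.05. At day 12, 20 were lower (23.5%) and 1 was higher (1.18%), beside the shares of all tested genes given above. Their median log2 fold change was −0.17 at day 1 and −0.19 at day 12. Between day 12 and day 1, 16 were lower and 2 higher (18.8% and 2.35%, against 8.53% and 10.6% of all tested genes). Leaving out single libraries gave 8 to 12 lower calls at day 1 and 18 to 21 at day 12.

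Outside the cell, both tested genes among the other ligands and carriers were lower at day 12 (100%, against 16.2% of all tested genes). Igf2, the second ligand, averaged 526 ± 28.7, 376 ± 26.7 and 90.2 ± 6.09 CPM in the successive groups (SD, n = 5). Its day 12 value of −2.54 on the log2 scale (adjusted p = 9.96e-23, edgeR) is uncertain in origin, because 64.5% of its exon bases are shared with the annotated genes Gm49394 and Igf2os. Igfals, which encodes the acid-labile subunit of the serum IGF complex, was at −0.61 at day 1 and −1.0 at day 12 (adjusted p = 9.57e-15). Without replicate 4 of day 0 the day 1 value of Igfals was −0.579 and no longer called. Ins1, Ins2, Igfbp1 and Igfbpl1 had at most 4 counts in any library and were not tested.

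Among binding-protein proteases and their inhibitors, 6 of 11 were lower at day 12 (54.5%, against 16.2% of all tested genes), with a median of −0.74. Htra1 went from 244 ± 14.7 CPM to 183 ± 5.48 and 40.5 ± 1.75 CPM, which by day 12 was −2.59 on the log2 scale (adjusted p = 1.66e-24). Pappa2, a protease that cuts IGFBP3 and IGFBP5, was at 34.8 ± 2.87, 23.5 ± 3.14 and 6.84 ± 0.469 CPM, a log2 fold change of −2.35 (adjusted p = 1.64e-18). Stc2, a stanniocalcin that inhibits pappalysins, was lower at both times, by −0.78 (adjusted p = 1.99e-12) and −1.87 (adjusted p = 1.62e-19). Stc1, the other stanniocalcin of the list, averaged 42.4, 27.4 and 18.2 CPM at days 0, 1 and 12 and was called lower at day 1 (−0.62, adjusted p = 7.23e-09, edgeR). The genes of this list with lower levels thus included proteases as well as both stanniocalcins.

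In the list of other receptors and binding partners, 2 of 5 tested genes were lower at day 12 (40%, against 16.2%). Esm1, a secreted proteoglycan with an IGFBP-type domain, fell from 105 ± 3.05 CPM to 39.4 ± 1.49 and 6.08 ± 1.55 CPM, with log2 fold changes of −1.41 (adjusted p = 5.14e-14) and −4.10 (adjusted p = 1.3e-21, edgeR). Lrp2, an endocytic receptor, was called at day 12 (−1.95, adjusted p = 0.000464), although it had 7 to 78 counts per library and its groups overlapped. In the CCN family, matricellular proteins with an IGFBP domain, 2 of 5 tested genes were lower at day 1 (40%, against 13.4%). These were Wisp1 (−0.78, adjusted p = 5.99e-09) and Wisp2 (−0.65, adjusted p = 1.2e-15, edgeR). At day 12, 0 of 5 passed both limits in edgeR or DESeq2, against 29.2% of all tested genes in either direction in edgeR. Of the 5, 4 were lower there at an unadjusted p below 0.05. The 3 IGF mRNA-binding proteins gave 0 calls in edgeR and DESeq2 at either time, against 21.1% and 29.2% of all tested genes in edgeR at days 1 and 12. Of the 3, 1 was higher at day 1 and 2 at day 12 at an unadjusted p below 0.05, with a median of 0.52 at day 12.

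Growth hormone drives Igf1 transcription by way of STAT5, and the SOCS family genes respond to this route. Of 8 genes of this list, 3 were lower at day 12 (37.5%, against 16.2% of all tested genes). At day 1, 0 were called by edgeR or DESeq2, against 21.1% of all tested genes in edgeR, with 2 higher and 6 lower at an unadjusted p below 0.05. Socs2 was at 57.4 ± 1.66, 69.6 ± 3.62 and 24.6 ± 1.01 CPM at days 0, 1 and 12, with log2 fold changes of 0.28 (adjusted p = 2.74e-07) and −1.22 (adjusted p = 4.74e-19, edgeR). Cish, of whose exon bases 11.5% lie in another gene, was at −0.57 at day 1 and −0.96 at day 12 (adjusted p = 1.1e-14). Socs3 was at −0.61 at day 12 (adjusted p = 2.39e-13), a call lost without replicate 5 of day 0 (−0.585) and with total counts (−0.412) or reference genes (−0.549). It was also lost in the 11 libraries of the larger series of library numbers (−0.569).

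Inside the cell, 3 of 11 tested receptor adaptors were lower at day 12 (27.3%, against 16.2% of all tested genes), among them Irs3 (−1.67, adjusted p = 6.9e-10) and Irs1 (−0.95, adjusted p = 3.44e-14, edgeR), which dock signaling proteins to the activated receptors. Of the exon bases of Irs1, 30.9% are shared with another gene. Sh2b2, an adaptor of the insulin receptor, was called at day 1 (−0.61, adjusted p = 4.22e-08) but not without replicate 3 of day 1 (−0.572). Of 23 genes of the PI3K, AKT and mTOR arm, 2 were lower and 1 was higher at day 12 (8.7% and 4.35%, against 16.2% and 13%), with a median of −0.04. Akt1, the kinase of this arm, rose from 174 ± 3.76 CPM to 272 ± 5.81 CPM at day 12, a log2 fold change of 0.64 ± 0.026 (adjusted p = 9.36e-17). Foxo1, a transcription factor that AKT keeps out of the nucleus, fell by 0.73 on the log2 scale (adjusted p = 7.12e-17), and Foxo3 by 0.62 (adjusted p = 6.55e-13). With total counts the day 12 values of Foxo1 (−0.532) and Foxo3 (−0.429) were within the fold limit, as was that of Foxo3 with reference genes (−0.566). Foxo3 was also called lower at day 1 (−0.63, adjusted p = 8.62e-13, edgeR), and day 12 differed from day 1 by 0.01 (adjusted p = 0.867). Of 13 genes of the RAS and ERK arm, 0 were called by edgeR or DESeq2 at day 1 or at day 12. Of all tested genes edgeR called 21.1% and 29.2% in either direction at these times. In this arm 4 and 8 were higher and 4 and 2 lower at an unadjusted p below 0.05. Nagpa (−0.97, adjusted p = 5.42e-16) and Gnptg (−0.74, adjusted p = 7.22e-13) fell at day 12 among 4 genes of mannose 6-phosphate sorting (50%, against 16.2%), the route that the Igf2r protein serves. Of the exon bases of Gnptg, 49.5% are shared with another gene, and its day 12 value was −0.547 with total counts.

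**Figure D4:**
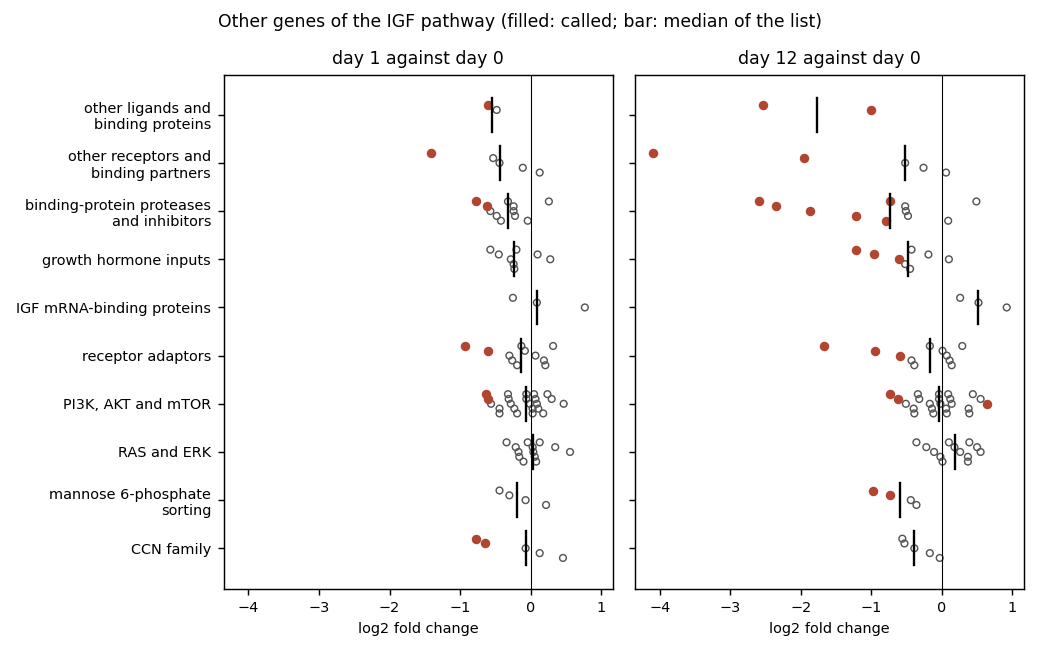
Log2 fold change from day 0 (horizontal axis) of every tested gene in 10 lists of the wider pathway at day 1 (left) and day 12 (right); filled points passed both limits, open points did not, and vertical bars are list medians. Filled points lie to the left of 0 except Akt1 at day 12, and the RAS and ERK list has none.

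Markers of other cells and of growth moved with the groups, and their part in the IGF axis values was not tested. The stromal progenitor list had 4 of 10 tested genes lower at day 12 (40%, against 16.2% of all tested genes), among them Ly6a (−1.42) and Col3a1 (−0.79), while Pdgfra (0.34) and Pdgfrb (0.49) lay above 0 with edgeR adjusted p of 4.73e-11 and 7.14e-12, under the fold limit. The adipocyte list had 3 of 10 higher and 4 lower (30% and 40%, against 13% and 16.2%). The proliferation list had 5 of 6 higher at day 12 (83.3%, against 13%), and its summed level ranged over 93.1 to 108 CPM at day 0, 112 to 125 at day 1 and 209 to 243 at day 12. Macrophage markers summed to 7.79 to 10.5, 10.9 to 14.2 and 7.64 to 8.35 CPM, mostly from Cd68, with the leukocyte marker Ptprc at 7 counts or fewer in any library. Endothelial markers summed to 0.535 to 0.689, 0.282 to 0.916 and 0.921 to 1.48 CPM, with Cdh5 at 6 counts or fewer. Mesothelial markers summed to 2.06 to 2.25, 1.79 to 2.16 and 23.4 to 38.3 CPM, the day 12 level coming from Msln, while Wt1 had at most 1 count and Upk1b at most 4 in any library.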

How the data were processed

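RNA of 15 libraries of cultured adipocytes, 5 each at 0, 1 and 12 days at 31°C, was sequenced. Per the labels and methods, the authors aligned reads to mm10 with TopHat 2.0.13 and Bowtie2 2.2.1, and the deposited values used here were HTSeq read counts per gene. Counting may have combined overlapping genes. The authors' regularized log2 values and DESeq2 tables (log2 fold changes, adjusted p-values) were not used.

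Genes were filtered with filterByExpr (minimum count 10), leaving 14293, and scaled by TMM, with factors of 0.9459 to 1.094. They were tested in a single fit of all groups with edgeR 4.0.16 (R 4.3.3), Benjamini-Hochberg adjustment at 0.05 and a fold limit of 1.5, after a check on simulated data. A count of 0 allows 0.0225 to 0.0464 CPM (3 counts, counting error only). Exon lengths came from GENCODE on GRCm38 and promoter sequences from RefSeq. Replicates differed by more than sampling noise, so each library counted as 1 sample.

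The members, gene lists and tests were chosen with earlier results of these data known. All 9 members are named. Listed genes are named where called against day 0, with at most the 3 largest changes per list, and genes nearest to a member are the 3 of highest correlation. The other list and marker genes named, Stc1, Ins1, Ins2, Igfbp1, Igfbpl1 and the markers, were chosen after their values were seen. Alternatives were other scalings (DESeq2 size factors, total counts, the reference genes Hprt, Tbp and Ppia), DESeq2 1.42.0, other filters, no fold limit, a library-number covariate, fewer libraries, a replicate block and the longest transcript as gene length. C1qa was not analysed here.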

Additional observations from a re-analysis of the deposited data

Results flagged for a closer look

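In 5 of 45 sets of 5 libraries, the library farthest out stood apart from the rest by Dixon's criterion (gap over range above 0.71), and chance alone marks about 1 set in 20. Replicate 2 of day 0 had 205 CPM of Igf1, with the other day 0 libraries at 226 to 233 CPM. Replicate 5 of day 1 had 69 CPM of Igf1r, with the others at 83.1 to 87.1 CPM. Replicate 4 of day 12 had 58.7 CPM of Igfbp2, beside 47.6 to 50.3 CPM. Igfbp3 made up 1.37% of the binding-protein transcripts in replicate 5 of day 12, beside 1.14 to 1.19%, and Igfbp4 made up 22.6% in replicate 5 of day 0, beside 23.6 to 24%. None of these libraries, when left out, ended the call of Igf1, Igfbp3 or Igfbp4 at day 12.

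The changes from day 0 differed between the exposures for 5 members, by the edgeR test of day 12 against day 1 with the 1.5-fold limit. In that test 8 of 9 had an adjusted p below 0.05, a count given without the share over all tested genes. The change at day 12 minus that at day 1, on the log2 scale, was −1.50 for Igf1, −0.77 for Igfbp3, −1.32 for Igfbp4, 1.08 for Igfbp5 and −1.20 for Igfbp7. Igfbp5 was the member whose value lay below 0 at day 1 and above 0 at day 12 with both adjusted p-values below 0.05, although its day 1 difference was under the fold limit.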

How the results depend on the processing

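Of 702 member values under the alternatives, 681 kept their direction and their side of the limits, 18 passed the limits in addition, 1 (Igf2r at day 12 with total counts, −0.550) no longer passed and 2 turned in sign. Without the fold limit, 2 members were higher and 5 lower at day 1, 2 were higher at day 12, and 3 were higher at day 12 against day 1. For the other pathway genes it gave 19 higher and 42 lower, 23 and 47, and 25 and 36. Total counts moved the median of all tested genes at day 12 to 0.205 and against day 1 to 0.182, so that 35.9% and 27.3% of called genes were lower, beside 55.6% and 44.7% with TMM. Reference genes moved the day 1 median to −0.107 (75.8% lower beside 63.5%) and the median of day 12 against day 1 to 0.163 (29% lower). With reference genes 2 members were lower at day 1, Igf2r (−0.626) being added, and 2 were higher at day 12, as with total counts and without the count filter, Igfbp6 being added (0.637, 0.775 and 0.586). Other pathway genes higher at day 12 numbered 8 with total counts, 4 with reference genes and 2 in the larger library series of 11. Against day 1 they numbered 8 higher and 7 lower with total counts, and 6 and 8 with reference genes. Igfbp2 between days 12 and 1 was 0.0388 with total counts and 0.0187 with reference genes. Socs3 in that comparison was 0.0180 with total counts, and Wisp2 at day 12 was 0.0191. Foxo3 between days 12 and 1 was −0.0086 with the library-number covariate and −0.0178 to 0.0379 without single libraries, being −0.0040 without replicate 3 of day 1, −0.0132 without replicate 5 of day 1 and −0.0178 without replicate 4 of day 12. The cause was not tested.

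Leaving out single libraries gave 1 to 2 members higher at day 12, the addition being Igfbp6, and in the other pathway genes 1 to 3 higher at day 12 and 1 to 2 higher against day 1. The replicate numbers were not taken to pair the libraries, since over 15 same-numbered pairs the correlation of deviations was −0.026 to 0.044. In 17 of 30 cases a library nonetheless correlated best with its own number, a hint from the data and not from the design. The replicate block left the member counts as they were, with 1 lower after 1 day and 5 lower after 12 days. With the longest transcript as length, shares at days 0, 1 and 12 were 2.08, 2.59 and 5.08% for Igfbp2, 2.2, 1.17 and 1.48% for Igfbp3, 25.8, 23.7 and 20.5% for Igfbp4 and 68.0, 70.3 and 66.0% for Igfbp7. Igfbp5 was at 0.561% at day 1 and Igfbp6 at 4.45% at day 12. Counts of 1906 or more per member made counting error small beside the spread between libraries.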
